A study of Mus musculus with 6 samples.

Results

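Cells exchange amino acids with their surroundings through carrier proteins, and the genes of 7 such families are described here as they were read in cells with and without a knockdown of the ubiquitin ligase gene RNF11. The genes were taken from the deposited count table by their symbols: protein-coding rows that begin with SLC1A, SLC3A, SLC6A, SLC7A, SLC36A, SLC38A or SLC43A and a digit. They number 46 of the 20499 genes listed. All 6 libraries came from cells labelled AML12, an immortalized mouse hepatocyte line, and all had been through hypoxia and reoxygenation: 6 h at 1% oxygen without glucose or serum, then complete medium in normal air. That medium held 10% serum, insulin, transferrin, selenium and 40 ng/mL dexamethasone, per the labels. In 3 libraries (shControl, genotype WT in the labels) the cells were controls, and in 3 (shRNF11) RNF11 had been knocked down by lentivirus. No library without hypoxia was analysed here, and the sources used here do not give the hairpin sequences, whether the cells were a clone or a pool, or the time in normal air before harvest. The labels do not say that replicates came from separate cultures, so the p-values cover the library-to-library spread alone, which may be technical.

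As background, amino acid transport works as a relay. Sodium-coupled carriers of the SLC1A, SLC6A and SLC38A families load the cell against a gradient, and heteromeric exchangers trade that pool for leucine, cystine and other amino acids outside. Each heteromer pairs a light chain of the SLC7A family with a heavy chain of the SLC3A family, which brings it to the surface. Carriers of the lysosome, such as those of the SLC36A family and a few of the SLC38A family, release amino acids to the cytosol, where mTOR complex 1 reads them. When amino acids run short, the transcription factor ATF4 raises several of these genes.

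Library depth ran from 37485850 to 39045440 counts, and the 46 genes held 0.567% to 0.592% of them. RNF11 was lower in all 3 shRNF11 libraries, at 15.4, 14.9 and 15.8 CPM (reads per 1000000 of a library total scaled by TMM) against 52.9, 50.2 and 49.9 CPM in shControl (adjusted p = 3.48e-28, log2 fold change -1.73, SE 0.0633, n = 3 per group, from the quasi-likelihood test of edgeR). The table names human genes although the labels say mouse: 0 of its Entrez numbers are in the mouse RefSeq table. Its KEGG pathway terms are human for 6391 genes and mouse for 0. On the labels alone, the values below cannot be taken as those of mouse hepatocytes. Hepatocyte markers were close to absent, with 15 of 24 listed and a summed level of 2.56 to 3.98 CPM in shControl and 3.18 to 3.49 CPM in shRNF11. ALB, TTR and SERPINA1 had no row, and 2.49 CPM of the shControl sum was HPD, an enzyme of tyrosine breakdown. The 4 listed of 6 epithelial markers summed to 3105 to 3234 CPM in shControl and 3773 to 3899.8 CPM in shRNF11. EPCAM and KRT19 had no row and CDH1 had 29 reads in all, so that sum is nearly all KRT7, KRT8 and KRT18, each higher in shRNF11. The 7 fibroblast markers summed to 67.9 to 91.4 CPM and 65.1 to 93.3 CPM, with LUM higher in shRNF11. COL1A2 was uneven within both groups, with 156, 16 and 19 reads in shControl and 16, 207 and 279 in shRNF11, and its call as higher in edgeR (adjusted p = 0.0114) was lost in DESeq2 (0.46), in limma-voom (0.087) and without shControl replicate 3 or shRNF11 replicate 2 or 3 (0.101 to 0.164). Of 6 blood and endothelial markers, which summed to 50.03 to 55.3 CPM and 43.4 to 49.4 CPM, PTPRC and CD3E had no row. Nearly all of the sum was the lysosomal CD68, at a mean of 49.2 CPM in shControl and 43.5 CPM in shRNF11. CD68 was lower in shRNF11, a call lost without shControl replicate 1 (adjusted p = 0.113) or shRNF11 replicate 1 (0.0701). The part of these shifts in the differences below was not tested, and in bulk RNA fewer cells of a type and less RNA per cell cannot be told apart.

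The carriers changed in both directions, and the larger changes were few. Of the 46 genes, 32 had enough reads to be tested, 8 were higher in shRNF11 cells, 5 were lower and 19 did not pass an adjusted p of 0.05 (edgeR quasi-likelihood test, adjusted over all 13489 tested genes). The 13 changed genes were 40.6% of those tested, beside 32.1% of all tested genes (17.4% higher and 14.7% lower). The groups' libraries did not overlap for 21 of the 32 genes (65.6%), beside 42.8% of all tested genes. The median log2 fold change of the 32 genes was 0.00911, beside -0.00793 over all tested genes. It rests on few genes near 0: without SLC7A6OS, which is no carrier, 13 of 31 were called (41.9%) and the median was 0.0343, and without SLC7A6OS and SLC7A7 12 of 30 were called and the median was 0.00911. The direction of small changes depended on the scaling: with library totals in place of TMM factors, 6 of the genes were higher and 11 lower, and the share of higher calls among all changed genes went from 54.2% to 29.1%. Tested against a 1.2-fold change, 5 of the 13 were still called, namely SLC7A2, SLC7A7, SLC7A8 and SLC38A5, which were higher, and SLC43A2, which was lower. SLC7A7 is among the 32 only through its reads in shRNF11, and the 31 others reached the filter in libraries of both groups.

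**Figure D1:**
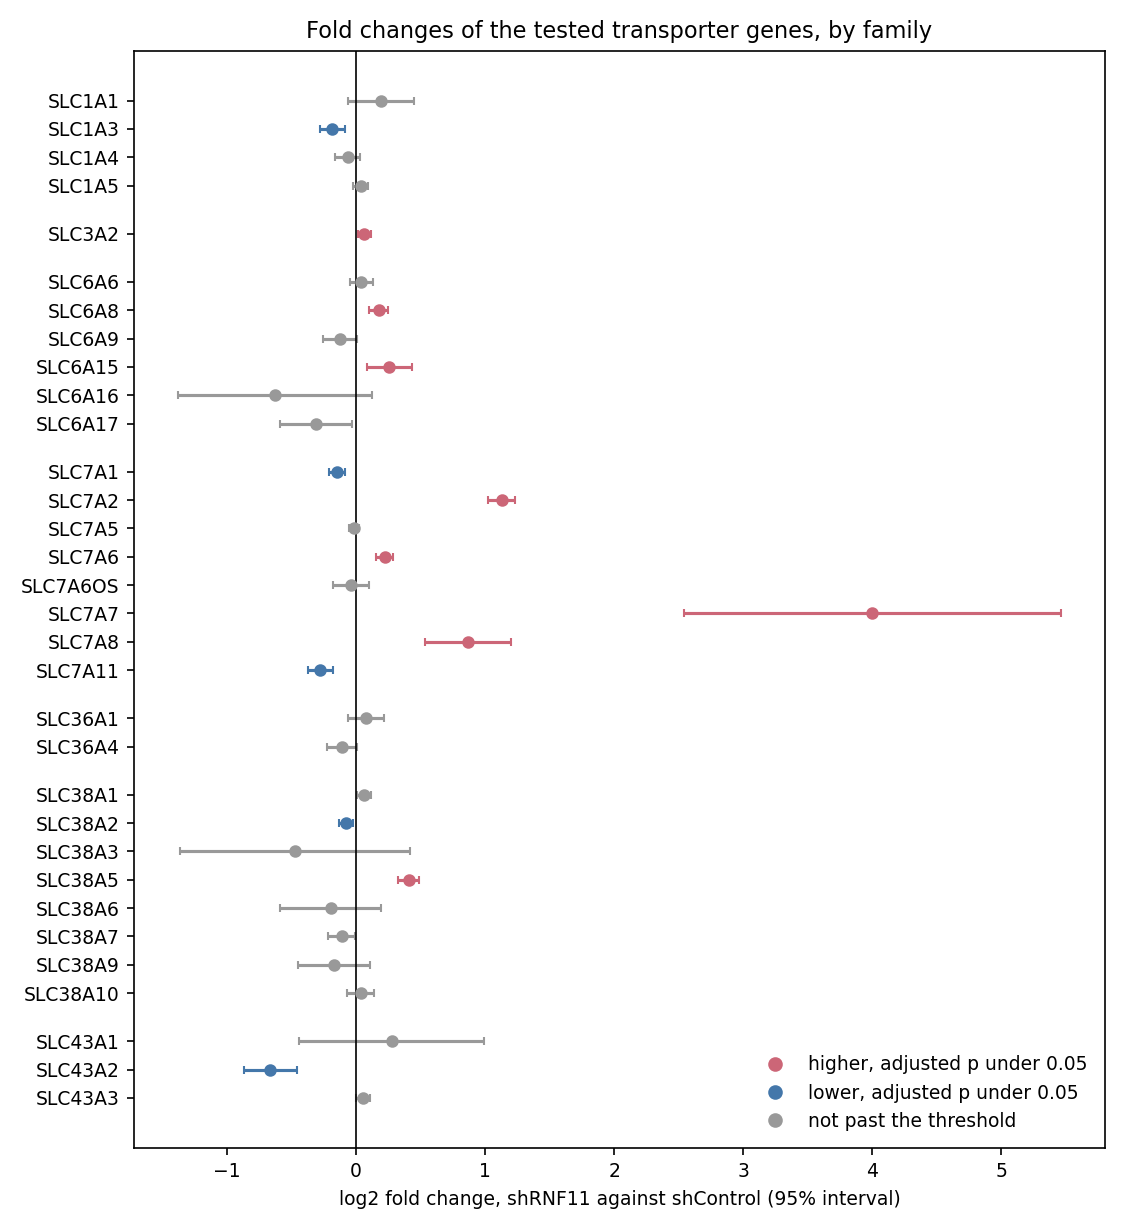
Log2 fold change of each of the 32 tested genes in shRNF11 against shControl (x axis) with its 95% interval, grouped by family from top to bottom (y axis), with colour for the call. SLC7A2, SLC7A7 and SLC7A8 stand farthest to the right and SLC43A2 is the lower gene whose interval lies farthest from 0, while most carriers lie within a narrow band around 0. With library totals the estimates of SLC1A5, SLC3A2, SLC6A6, SLC38A1, SLC38A10 and SLC43A3 fall just below 0.

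The heteromeric exchangers were taken first, since 1 heavy chain serves most of the light chains. SLC3A2, the heavy chain known as CD98, was read at 708, 703 and 706 CPM in shControl and at 718, 769 and 725 CPM in shRNF11. The groups do not overlap, but the shift was small at 1.05-fold higher (log2 fold change 0.0642, 95% interval 0.0138 to 0.11, adjusted p = 0.0438). It was -0.000226 on the log2 scale with library totals, and the call was lost with upper-quartile factors (adjusted p = 0.19), with a filter at a mean of 5 CPM (0.103) and without any 1 of shControl replicates 1, 2 and 3 or shRNF11 replicate 2 (adjusted p 0.103 to 0.336). SLC3A1, the heavy chain of the kidney and gut cystine carrier, had 38 reads in all 6 libraries together and was not tested.

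Among the 5 tested light chains, 3 were higher, 1 was lower and 1 did not pass, beside 17.4% of all tested genes higher and 14.7% lower. The 3 include SLC7A7, which was tested through its reads in shRNF11 alone, so its call is a description. SLC7A5, the leucine carrier that exports glutamine and feeds mTOR complex 1, held 40.6% to 42.8% of the reads of all 46 genes, a share not corrected for gene length. Its level was 2485, 2383 and 2425 CPM in shControl and 2438, 2425 and 2349.7 CPM in shRNF11. The libraries of the groups overlap, and the interval of the difference is narrow (log2 fold change -0.0161, 95% interval -0.0569 to 0.0248, adjusted p = 0.587). With library totals SLC7A5 was called lower (log2 fold change -0.0804, adjusted p = 0.00125).

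SLC7A6, which exchanges cationic for neutral amino acids, rose from 153, 164 and 157 CPM to 179, 186 and 186 CPM. Every shRNF11 library lies above every shControl library, with a difference of 1.17-fold higher (adjusted p = 7.00e-07, log2 fold change 0.22, SE 0.0338). The row SLC7A6OS, a gene on the opposite strand that is no carrier but falls under the symbol rule, did not pass (26.5 ± 2.14 CPM in shRNF11 and 27.2 ± 1.27 CPM in shControl, SD, n = 3, adjusted p = 0.732). A strand setting for the counting is not stated in the sources used here, so reads where these genes overlap cannot be told apart.

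SLC7A8, a carrier of large and small neutral amino acids, was a low-level gene at 3.77, 3.57 and 2.66 CPM in shControl. It reached 5.72, 5.65 and 6.89 CPM in shRNF11, so the groups are clearly apart, and it was 1.82-fold higher (adjusted p = 4.14e-05, log2 fold change 0.87, SE 0.166). SLC7A7, the cationic exchanger whose loss causes lysinuric protein intolerance, was close to silent in shControl with 0, 2 and 3 reads, and had 16, 34 and 34 reads in shRNF11. Its summed reads per scaled total were 17.2 times higher, with an exact interval of 7.08 to 54.3 that covers counting error only. It reached the filter on low counts in shRNF11 libraries only, so it had to differ, and its call is a description and no test. The fitted log2 fold change of 4.001 (SE 0.725) moved between 3.45 without shControl replicate 1 and 4.67 without shControl replicate 3. In shRNF11 SLC7A7 was still under 1 CPM.

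SLC7A11, the light chain of the cystine and glutamate exchanger xCT that supplies cysteine for glutathione, went the other way. It fell from 68.6, 71.2 and 64.5 CPM to 55.3, 55.5 and 57.8 CPM, and no shRNF11 library reaches the lowest shControl library. The difference was 1.21-fold lower (adjusted p = 6.65e-06, log2 fold change -0.28, SE 0.0476). SLC7A9, the partner of SLC3A1, had 3 reads in all and was not tested.

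The cationic carriers of the same family, which work without a heavy chain, gave opposite changes. SLC7A2, a carrier of arginine, lysine and ornithine with a low-affinity form known from liver, was read at 35.02, 35.9 and 33.1 CPM in shControl and at 71.3, 76.5 and 79.3 CPM in shRNF11. All 3 shRNF11 libraries lie far above shControl, a gap much wider than the spread within either group. SLC7A2 was 2.18-fold higher (log2 fold change 1.13, 95% interval 1.02 to 1.23, adjusted p = 5.02e-24), and 99 of the 13489 tested genes had a higher log2 fold change. SLC7A1, the housekeeping arginine carrier, fell from 222, 213 and 217 CPM to 199, 195 and 195 CPM. Its groups do not overlap either, at 1.11-fold lower (adjusted p = 0.000196, log2 fold change -0.15, SE 0.0313).

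**Figure D2:**
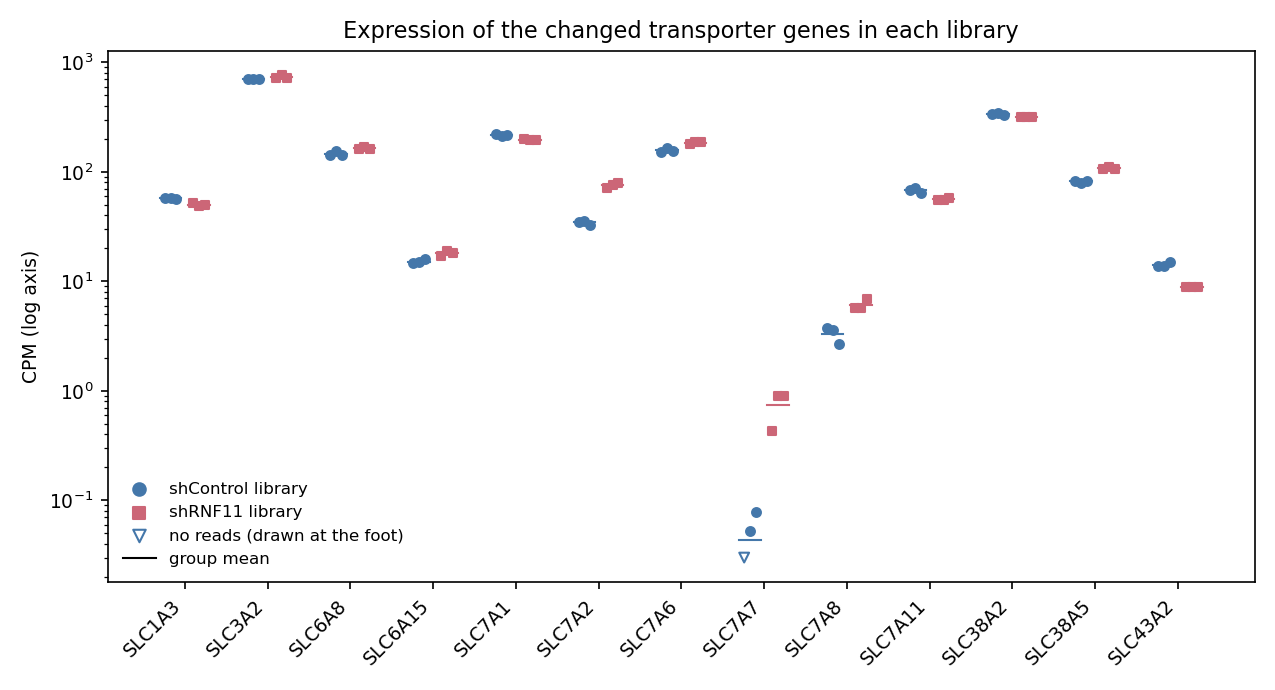
CPM on a log axis (y) in each library for the 13 changed genes (x), with circles for shControl, squares for shRNF11, a line at each group mean and an open triangle for a library without reads. SLC7A2 is set apart by 2.18-fold at a middle level, SLC7A7 rises from near 0, and the well-read genes such as SLC3A2 and SLC38A2 differ by little; SLC3A2 shows no rise when libraries are scaled by their totals.

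Sodium-coupled neutral carriers of the SLC38A family had 1 gene higher, 1 lower and 6 that did not pass of 8 tested. The share called was 25%, beside 32.1% of all tested genes. SLC38A5, a system N carrier of glutamine, asparagine, serine and glycine, rose from 82.6, 79.4 and 83.3 CPM to 107, 111 and 107 CPM. The groups lie well apart, at 1.33-fold higher (adjusted p = 5.81e-12, log2 fold change 0.41, SE 0.0397). SLC38A2, the glutamine and alanine carrier that cells raise under amino acid shortage and osmotic stress, was 336, 343 and 329 CPM in shControl and 317, 317 and 319 CPM in shRNF11. It was 1.06-fold lower (adjusted p = 0.025, log2 fold change -0.0789, SE 0.0279). That call was lost without shControl replicate 1 (adjusted p = 0.0797), shControl replicate 2 (0.154) or shRNF11 replicate 2 (0.0763).

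SLC38A1, a carrier of glutamine and other small neutral amino acids, had 497, 496 and 505 CPM in shControl and 514, 511 and 538 CPM in shRNF11. Its libraries do not overlap, yet the change did not pass (log2 fold change 0.0611, 95% interval 0.00888 to 0.11, adjusted p = 0.0658), and it was -0.00314 with library totals. It did pass in limma-voom (adjusted p = 0.0484) and without shRNF11 replicate 1 (0.0388) or 2 (0.0428). SLC38A10 stood at 51.3 ± 1.85 CPM in shRNF11 and 50.1 ± 3.21 CPM in shControl (SD, n = 3) and did not pass. SLC38A6 and SLC38A3 had under 4 CPM in every library, and neither passed, with log2 fold changes of -0.20 (95% interval -0.59 to 0.20) and -0.47 (-1.36 to 0.42). SLC38A4, a carrier typical of liver, had 13 reads in all and was not tested.

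None of the 4 tested carriers best known from the lysosome passed the threshold. SLC38A7, which lets glutamine and asparagine out of lysosomes, had 48.6, 50.4 and 50.9 CPM in shControl and 46.2, 48.3 and 44.1 CPM in shRNF11. Its libraries do not overlap, but the difference did not pass (log2 fold change -0.11, 95% interval -0.22 to -0.00848, adjusted p = 0.0913). With library totals (adjusted p = 0.00635), upper-quartile factors (0.0476) or a filter at a mean of 5 CPM (0.0469) SLC38A7 was called lower. SLC38A9, the arginine sensor that signals to mTOR complex 1, was at 6.29 ± 0.802 CPM in shRNF11 and 7.09 ± 1.05 CPM in shControl (SD, n = 3; log2 fold change -0.17, 95% interval -0.45 to 0.11, adjusted p = 0.367). SLC36A1, a proton-coupled carrier of small amino acids, was at 26.1 ± 0.870 CPM in shRNF11 and 24.7 ± 0.764 CPM in shControl (log2 fold change 0.0775, 95% interval -0.0604 to 0.22, adjusted p = 0.421). SLC36A4, its high-affinity relative for proline and tryptophan, had 42.2, 40.5 and 38.3 CPM in shControl and 37.6, 36.99 and 37.6 CPM in shRNF11. These do not overlap, and the difference did not pass (log2 fold change -0.11, 95% interval -0.22 to 0.00447, adjusted p = 0.138), except with library totals (adjusted p = 0.0142). By the table's Gene Ontology terms, 6 of the tested genes are placed at the lysosome, of which 1 (SLC3A2) was higher and 0 were lower in edgeR, DESeq2 or limma-voom, while 1 was lower at an unadjusted p of 0.05 in edgeR and 3 were lower with library totals. The same terms place 27 of the 32 tested genes at the plasma membrane, so a count of calls there says little about location. Of these, 8 were higher and 5 lower, which are all 13 changed genes, while 32.1% of all tested genes were called. The 8 include SLC7A7, which was tested through its reads in shRNF11 alone, so its call is a description.

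The SLC1A family of acidic and small neutral carriers had 1 of 4 tested genes called (25%, beside 32.1% of all tested genes). SLC1A3, a glutamate and aspartate carrier best known from glia, fell from 57.2, 58.2 and 56.2 CPM to 51.97, 49.2 and 49.9 CPM. The groups do not overlap, at 1.14-fold lower (adjusted p = 0.00286, log2 fold change -0.18, SE 0.0491). SLC1A5, the chief glutamine carrier of growing cells, was 288, 274 and 282 CPM in shControl and 282, 295 and 287 CPM in shRNF11. Its libraries overlap and the interval is tight (log2 fold change 0.0349, 95% interval -0.0241 to 0.0939, adjusted p = 0.394). SLC1A4, a carrier of alanine, serine and cysteine, was at 63.3 ± 3.19 CPM in shRNF11 and 66.3 ± 0.981 CPM in shControl (SD, n = 3) and did not pass (log2 fold change -0.0665, 95% interval -0.16 to 0.0272, adjusted p = 0.293), although it was called lower with library totals (adjusted p = 0.0259). SLC1A1, another glutamate carrier, was at 7.86 ± 0.857 CPM in shRNF11 and 6.88 ± 0.0731 CPM in shControl (log2 fold change 0.19, 95% interval -0.0646 to 0.45, adjusted p = 0.265).

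The SLC6A family mixes carriers of amino acids with carriers of transmitters, creatine and osmolytes, and 9 of its 15 listed genes had too few reads to test. SLC6A8, which takes up creatine, rose from 141, 155 and 141 CPM to 163, 169.7 and 161 CPM. Its groups do not overlap, at 1.13-fold higher (adjusted p = 0.000125, log2 fold change 0.18, SE 0.0361). SLC6A15, a carrier of branched-chain amino acids and proline, was 14.6, 15.1 and 15.9 CPM in shControl and 17.2, 19.1 and 18.2 CPM in shRNF11. It was 1.196-fold higher (adjusted p = 0.0166, log2 fold change 0.26, SE 0.0855), a call lost with library totals (adjusted p = 0.0752), without shControl replicate 1 (0.0776) and without shRNF11 replicate 2 (0.0771). SLC6A6, the taurine carrier, was at 78.4 ± 2.30 CPM in shRNF11 and 76.2 ± 3.31 CPM in shControl (SD, n = 3; log2 fold change 0.0403, 95% interval -0.0477 to 0.13, adjusted p = 0.522). SLC6A9, a glycine carrier, was at 27.6 ± 1.07 CPM in shRNF11 and 30.1 ± 1.44 CPM in shControl and did not pass (log2 fold change -0.13, 95% interval -0.26 to 0.00551, adjusted p = 0.14), except with library totals (adjusted p = 0.0199). SLC6A17, a vesicle carrier known from neurons, had 5.29 ± 0.311 CPM in shRNF11 and 6.57 ± 0.267 CPM in shControl and did not pass (log2 fold change -0.31, 95% interval -0.59 to -0.0328, adjusted p = 0.0801), although with library totals or a filter at a mean of 5 CPM it did. SLC6A16, an orphan member, had 1.21, 1.46 and 0.982 CPM in shControl and 0.939, 0.789 and 0.633 CPM in shRNF11. Its libraries do not overlap, but the difference did not pass (log2 fold change -0.63, 95% interval -1.38 to 0.12, adjusted p = 0.204).

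SLC43A2, a facilitative carrier of branched-chain amino acids, phenylalanine and methionine, was the carrier that fell most among the tested genes by estimate. It went from 13.7, 13.7 and 14.96 CPM to 8.85, 8.96 and 8.92 CPM, and the shRNF11 libraries are nearly equal to one another. The difference was 1.58-fold lower (log2 fold change -0.66, 95% interval -0.87 to -0.46, adjusted p = 8.34e-07). SLC43A3, which carries purine nucleobases and not amino acids, was 317, 316 and 317 CPM in shControl and 328, 338 and 319 CPM in shRNF11. Its change did not pass (log2 fold change 0.0528, 95% interval -0.00412 to 0.11, adjusted p = 0.155), except without shRNF11 replicate 3 (adjusted p = 0.0335), and it was -0.0115 with library totals. SLC43A1, a relative of SLC43A2 for large neutral amino acids, was at 1.24 ± 0.219 CPM in shRNF11 and 1.03 ± 0.376 CPM in shControl (SD, n = 3; log2 fold change 0.27, 95% interval -0.44 to 0.99, adjusted p = 0.597).

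The remaining 14 genes were too sparse to test, with 1 to 46 reads each over all 6 libraries and at most 13 in 1 library. They were SLC1A2 and SLC1A7 (glutamate carriers), SLC3A1, SLC7A9, SLC38A4, and 9 of the SLC6A family: SLC6A2, SLC6A3, SLC6A7, SLC6A11, SLC6A12, SLC6A13, SLC6A18, SLC6A19 and SLC6A20. Among these are the noradrenaline and dopamine carriers SLC6A2 and SLC6A3 and the gut and kidney carrier SLC6A19. By family, the counts of higher and lower genes over those tested were 0 and 1 of 4 for SLC1A, 1 and 0 of 1 for SLC3A, 2 and 0 of 6 for SLC6A, 4 and 2 of 8 for SLC7A, 0 and 0 of 2 for SLC36A, 1 and 1 of 8 for SLC38A and 0 and 1 of 3 for SLC43A, beside 17.4% of all tested genes higher and 14.7% lower. SLC7A7, counted as higher in SLC7A, was tested through its reads in shRNF11 alone, so its call is a description. Differences between families were not tested. The counts of 0 were 0 at an unadjusted p of 0.05 in edgeR and in DESeq2 and limma-voom as well, except that 1 SLC6A gene was lower at the unadjusted p.

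Ratios of reads within a library do not depend on how libraries are scaled, but they move with either of their genes. For every 100 reads of SLC7A1 there were 15.7, 16.8 and 15.2 reads of SLC7A2 in shControl and 35.8, 39.2 and 40.7 in shRNF11. The mean of this ratio was 2.42-fold higher in shRNF11, where SLC7A1 itself was 1.11-fold lower. For every 100 reads of SLC3A2, SLC7A11 had 9.69, 10.1 and 9.14 reads in shControl and 7.69, 7.22 and 7.97 in shRNF11, while SLC7A8 had 0.533, 0.508 and 0.377 and 0.796, 0.735 and 0.950. SLC7A6 had 21.7, 23.3 and 22.2 reads per 100 of SLC3A2 in shControl and 24.9, 24.2 and 25.7 in shRNF11. In each of these cases the groups do not overlap, which in an exact two-sided permutation test of 3 against 3 libraries gives p = 0.1, the smallest it allows. SLC7A5 overlapped, with 351, 339 and 344 reads per 100 of SLC3A2 in shControl and 339, 315 and 324 in shRNF11 (exact permutation p = 0.2). Among the glutamine carriers, SLC38A5 had 24.6, 23.1 and 25.3 reads per 100 of SLC38A2 in shControl and 33.8, 35.01 and 33.6 in shRNF11, and the groups are apart. SLC38A2 itself was 1.06-fold lower in shRNF11. In the SLC43A family, SLC43A2 had 4.33, 4.33 and 4.73 reads per 100 of SLC43A3 in shControl and 2.70, 2.66 and 2.80 in shRNF11, also apart.

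**Figure D3:**
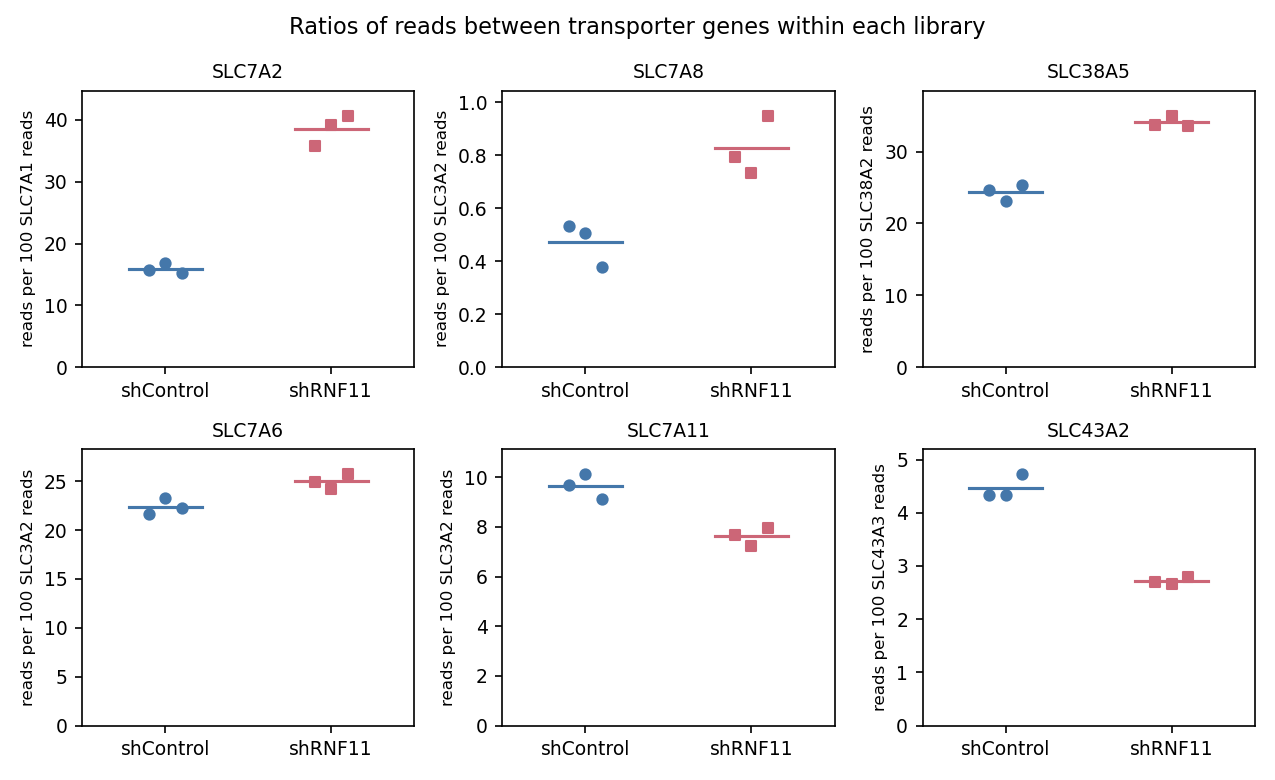
Reads of 6 carriers per 100 reads of a partner or relative in the same library (y axis, from 0) for shControl and shRNF11 libraries (x axis), with points for libraries and lines for group means. The ratios of SLC7A2, SLC7A8, SLC38A5 and SLC7A6 lie higher in shRNF11, those of SLC7A11 and SLC43A2 lower, and in all 6 panels the groups do not overlap.

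The level of a gene bears on how often it is called in these libraries. Of the 32 tested genes, 10 lie in the top quintile of expression, where 55.7% of all genes changed and 6 of these 10 did. In the quintile below it 38.8% of all genes and 3 of 8 family members in it changed, and in the lowest 9.19% and 1 of 4. That gene in the lowest quintile is SLC7A7, which reached the filter through shRNF11 libraries alone, so its call is a description. The median log2 fold change of all genes also rose with level, from -0.16 in the lowest quintile to 0.0647 in the highest. The 0.0642 of SLC3A2, in that quintile, is close to its median, whereas SLC7A2, at 1.13, lies in the second highest quintile, where the median was 0.00601.

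**Figure D4:**
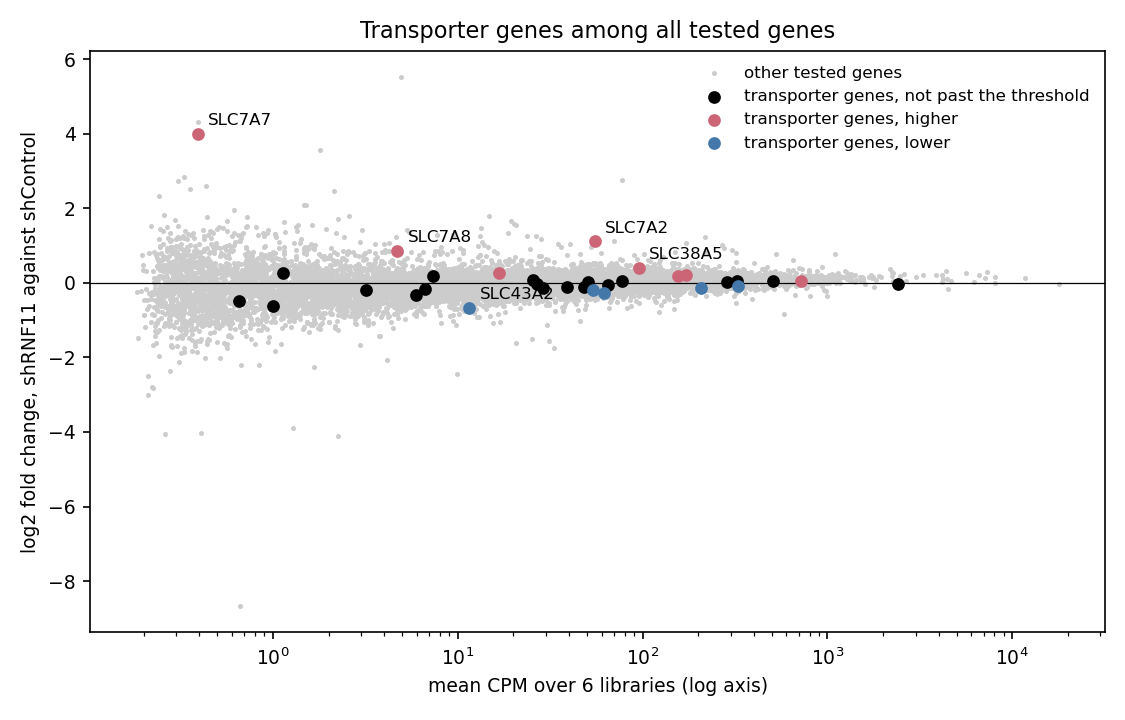
Log2 fold change in shRNF11 against shControl (y axis) over mean CPM on a log axis (x) for all 13489 tested genes (grey), with the 32 genes of the 7 families coloured by call. The labelled genes SLC7A2, SLC7A7, SLC7A8, SLC38A5 and SLC43A2 are the changed carriers farthest from 0, and SLC7A5 is the carrier farthest to the right.

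Genes that answer amino acid shortage went both ways. Of 28 genes that ATF4 is known to raise or act with, all tested, 7 were higher and 7 lower (over all tested genes, 17.4% and 14.7%), with a median log2 fold change of -0.0139. With library totals 4 were higher and 10 lower. The smallest p-values were those of DDIT4, an inhibitor of mTOR complex 1 (1.32-fold higher, 352 ± 8.78 CPM in shRNF11 and 266 ± 9.65 CPM in shControl), JDP2, a transcriptional repressor (1.55-fold higher), CEBPB, a transcription factor (1.41-fold higher), and PPP1R15A, which reverses the block on translation (1.27-fold lower). ATF4 itself was 1.07-fold higher at 306 ± 5.14 CPM in shRNF11 and 285 ± 8.69 CPM in shControl (SD, n = 3, adjusted p = 0.00548; 0.339 with library totals and 0.0608 without shControl replicate 3), and its partner DDIT3 was 1.47-fold lower (adjusted p = 6.65e-06). Of some carriers known as ATF4 targets, SLC7A11, SLC7A1 and SLC38A2 were lower and SLC7A5 did not pass. This set was named after its values were seen and is not complete. The SLC38A2 call was lost without shControl replicate 1 or 2 or shRNF11 replicate 2. SLC3A2 was higher but at -0.000226 on the log2 scale with library totals. ASNS, the asparagine synthetase and a standard ATF4 target, was at 1.64 ± 0.286 CPM in shRNF11 and 1.71 ± 0.225 CPM in shControl and did not pass.

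The genes by which mTOR complex 1 reads amino acids gave few calls: 0 of 33 tested were higher and 6 lower, or 18.2%, with a median log2 fold change of -0.0337. Over all tested genes 17.4% were higher and 14.7% lower, so the share of lower calls is near that of all genes. At an unadjusted p of 0.05 in edgeR 1 was higher, DESeq2 and limma-voom called 0 higher and 5 and 6 lower, and library totals gave 0 and 10. RRAGD, a Rag GTPase, was 2.22-fold lower at 1.34 ± 0.277 CPM in shRNF11 and 2.99 ± 0.393 CPM in shControl (SD, n = 3, adjusted p = 0.000304). RPTOR, the subunit that defines the complex, was 1.15-fold lower, a call lost in DESeq2 (adjusted p = 0.101). MIOS, of the activating GATOR complex, was 1.18-fold lower, a call lost without shRNF11 replicate 2 (adjusted p = 0.0578). For both RPTOR and MIOS the libraries of the groups overlap.

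Enzymes that use glutamine or glutamate included 6 higher and 0 lower of 12 tested, beside 17.4% of all tested genes higher and 14.7% lower, with a median log2 fold change of 0.17. The count of lower genes was also 0 at an unadjusted p of 0.05 in edgeR, in DESeq2 and in limma-voom. DESeq2 called 5 higher, and library totals gave 3 higher and 0 lower. GLUD1, glutamate dehydrogenase, was 1.16-fold higher, and GFPT1 and GFPT2, which pass the amide of glutamine to hexosamines, were 1.12-fold higher (adjusted p = 0.0582 with library totals) and 1.34-fold higher. Of 10 mitochondrial amino acid carriers tested, 4 were higher and 1 was lower (4 and 3 with library totals), beside 17.4% of all tested genes higher and 14.7% lower. SLC25A22, a glutamate carrier, was 1.25-fold higher at 51.5 ± 1.42 CPM in shRNF11 and 41.1 ± 1.04 CPM in shControl (adjusted p = 1.71e-06). SLC25A29, which moves basic amino acids into mitochondria, was 1.56-fold lower at 8.13 ± 1.21 CPM in shRNF11 and 12.7 ± 0.483 CPM in shControl (adjusted p = 8.46e-06). The serine carrier SFXN1 was 1.12-fold higher, SFXN3 1.17-fold higher and SLC25A44, a carrier of branched-chain amino acids, 1.14-fold higher. Of 6 tested amino acid and peptide carriers of other families, 1 was lower and 0 higher (16.7% called, beside 32.1% of all tested genes). The count of higher genes was 0 also at an unadjusted p of 0.05 and in DESeq2 and limma-voom. The lower gene was MFSD12, which takes cysteine into lysosomes and melanosomes (1.11-fold lower, adjusted p = 1.43e-05).

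Among partners and regulators of these carriers, 4 of 11 tested were higher and 3 lower (63.6%, beside 32.1% of all tested genes). The kinase gene SGK1, which is known to keep several carriers at the surface, was 1.40-fold lower at 97.2 ± 2.53 CPM in shRNF11 and 136 ± 4.27 CPM in shControl (SD, n = 3, adjusted p = 4.67e-15). NEDD4, a ubiquitin ligase, was 1.36-fold higher, MYC, which drives glutamine use in growing cells, 1.21-fold higher, and TXNIP, an arrestin-like regulator of glucose carriers, 1.25-fold lower. NEDD4L, a relative of NEDD4, went the other way at 1.18-fold lower (edgeR adjusted p = 0.000742). Protein and transport rates were not analysed here.

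**Figure D5:**
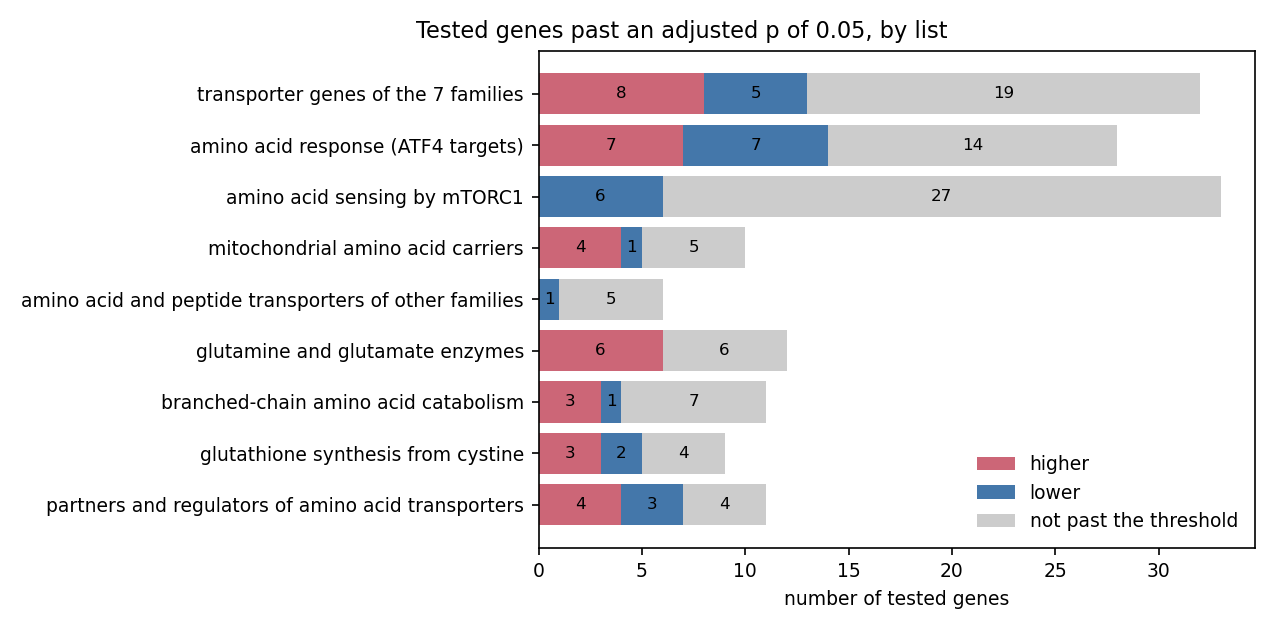
Number of tested genes (x axis) higher, lower or not past an adjusted p of 0.05 in shRNF11 against shControl, for the carriers and 8 lists of related genes (y axis). Over all tested genes 17.4% were higher and 14.7% lower, and differences between the lists were not tested. The carriers split 8 to 5, the ATF4 list 7 to 7, the glutamine and glutamate enzymes 6 to 0 and the genes of amino acid sensing 0 to 6; with library totals the carriers split 6 to 11.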

How the data were processed

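RNA was sequenced in 6 libraries, 3 per group, with groups and replicate numbers taken from the titles. The authors deposited raw read counts per gene, 1 column per library. Per the submitters' processing notes, fastp, HISAT2 and HTSeq were used, with no version or role stated. The sources used here name no build, annotation or strand setting. Genes passing filterByExpr of edgeR 4.0.16 (minimum count 10) were scaled with TMM factors and compared with its quasi-likelihood F-test in R 4.3.3, on group alone, with Benjamini-Hochberg adjustment over all 13489 tested genes. SE is the absolute log2 fold change over the square root of F. CPM carries no length correction, so the quintiles of level, the shares of reads and the ratios between genes are not corrected for gene length. The median SE was 0.0711, from a common biological coefficient of variation of 4.82%. The fit was tested on simulated counts. A chi-square statistic per gene was 3.79 to 5.85 between replicates, so no pair was a duplicate within sampling noise.

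The members and the lists of related genes were chosen with earlier results of these data known, and no list was tested as a set. Genes named are RNF11, each changed carrier, other tested carriers with at least 10 CPM in either group, the untested ones, and up to 4 changed genes per list with the smallest p (all where 5 or fewer). Other tested carriers, ATF4, DDIT3, ASNS, NEDD4L and some markers are named outside this rule, after their values were seen. Alternatives were RLE and upper-quartile factors, library totals, no filter, a mean of at least 5 CPM, DESeq2 1.42.0, limma-voom (3.58.1), a test against a 1.2-fold change, a replicate block and each library left out. Some genes that the naming rule selects are not reported here. Human sequences were not used here.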

Additional observations from a re-analysis of the deposited data

How the results depend on the processing

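Of the 13 changed carriers, 12 kept their direction under all 15 alternatives that gave them a value, the exception being SLC3A2, and SLC7A2, SLC7A7, SLC7A8, SLC38A5 and SLC43A2 also stayed past the threshold (SLC7A7, tested through its reads in shRNF11 alone, is a description; SLC7A7 and SLC7A8 lie under a mean of 5 CPM and had no value there). SLC1A3, SLC6A8, SLC7A1, SLC7A6 and SLC7A11 lost their calls only in the test against a 1.2-fold change. RLE factors, no filter, DESeq2 and the replicate block each called the same 13. With upper-quartile factors SLC3A had 0 higher, SLC38A 2 lower, and the median log2 fold change of the carriers was -0.0103. With library totals 11 carriers were lower, with 2 of SLC1A, 2 of SLC6A, 1 of SLC36A and 2 of SLC38A among them, 0 of SLC3A and 1 of SLC6A were higher, the median was -0.0552, and over all genes 1335 were higher and 3255 lower. Library totals also turned the sign of SLC1A5 (-0.0294), SLC3A2 (-0.000226), SLC6A6 (-0.0240), SLC38A1 (-0.00314), SLC38A10 (-0.0301) and SLC43A3 (-0.0115). A filter at a mean of 5 CPM, which tests fewer genes, gave 5 higher carriers, with 0 of SLC3A and 2 of SLC7A, and 1 lower of SLC6A and 2 of SLC38A. limma-voom gave 2 higher of SLC38A. Against a 1.2-fold change, a stricter question by construction, 4 carriers were higher and 1 lower (0 of SLC3A and 0 of SLC6A higher, 0 each of SLC1A, SLC7A and SLC38A lower), and over all genes 256 were higher and 240 lower. Other causes were not tested.

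Leaving out 1 library at a time gave 6 to 9 higher and 4 to 5 lower carriers. By family, higher genes ranged from 0 to 1 in SLC3A, 1 to 2 in SLC6A, 1 to 2 in SLC38A and 0 to 1 in SLC43A, and lower genes from 0 to 1 in SLC38A. The median log2 fold change ranged from -0.0251 to 0.0202, and that of SLC7A5 from -0.0299 to 0.00501, of SLC38A10 from -0.00413 to 0.0859 and of SLC7A6OS from -0.10 to 0.0206. Without shRNF11 replicate 1, which the second principal component sets apart (-26.4 against 13.6 and 11.5), all 13 were called. Libraries with the same replicate number showed no shared deviation over all genes (correlations -0.0159 to -0.00586), which cannot tell whether they were handled together. With the replicate block 8 carriers were higher and 5 lower. Depth limits the 14 untested genes and those near 1 CPM, whose intervals span more than a 1.5-fold change.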

Other observations

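Genes of cysteine use beyond the carrier gave mixed values. In the list named glutathione synthesis from cystine, 3 of 9 tested genes were higher and 2 lower, beside 17.4% of all tested genes higher and 14.7% lower (3 and 1 in DESeq2, 3 and 3 with library totals). That list also holds genes that act outside synthesis, among them TXNRD1, GSR and GPX4. TXNRD1, a thioredoxin reductase, was 1.15-fold higher (edgeR adjusted p = 2.27e-08), the glutathione reductase gene GSR 1.21-fold higher (2.34e-07) and GCLM, the modifier subunit of the first enzyme of glutathione synthesis, 1.197-fold higher (0.000444). The catalytic subunit GCLC was 1.08-fold lower (0.0478) and the lipid peroxide reductase gene GPX4 1.08-fold lower (0.0169). GCLC lost its call with RLE factors (0.0503), no filter (0.0721), DESeq2 (0.0537) or without any 1 of shControl replicates 1 and 2 and shRNF11 replicates 2 and 3 (0.127 to 0.175). GPX4 lost it without shControl replicate 3 (0.0844), shRNF11 replicate 2 (0.0595) or shRNF11 replicate 3 (0.0795).

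Branched-chain amino acid breakdown had 3 of 11 tested genes higher and 1 lower, or 0 and 1 with library totals. The share called was 36.4%, near the 32.1% of all tested genes. BCAT1, the cytosolic aminotransferase, was 1.08-fold higher (edgeR adjusted p = 0.017), and DBT, a subunit of the branched-chain dehydrogenase, 1.15-fold higher (0.0215). BCKDHA, another subunit of that enzyme, was 1.13-fold lower (0.0321), and BCKDK, the kinase that switches it off, 1.14-fold higher (0.0119). Each of these 4 calls was lost without at least 1 single library: BCAT1 without shControl replicate 2 or shRNF11 replicate 3 (adjusted p up to 0.125), DBT without shControl replicate 2 or 3 or shRNF11 replicate 2 or 3 (up to 0.154), BCKDHA without shControl replicate 1 or 3 or shRNF11 replicate 1 or 3 (up to 0.136) and BCKDK without shControl replicate 2 or 3 or shRNF11 replicate 1 (up to 0.0707).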
